A study of Homo sapiens with 3 samples.

Results

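Cereblon (CRBN) and the scaffold genes of the cullin-RING ubiquitin ligases were followed at gene and isoform level in HEK293T cells that had received 1 of 3 siRNAs. The set held 10 genes, taken by name from a table of 23284 genes: CRBN, DDB1, CUL1, CUL2, CUL3, CUL4A, CUL4B, CUL5, CUL7 and RBX1. The isoform table held 17 RefSeq isoforms of these genes. They were selected on the FPKM values and isoform shares of these same libraries, in which the CRBN isoforms had been seen to differ, so what follows is a description and carries no test.

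HEK293T is a human embryonic kidney line that carries the SV40 large T antigen. The groups were a negative control siRNA, an siRNA against ESRP2 (an epithelial splicing regulator) and an siRNA against Arkadia (a RING ubiquitin ligase encoded by RNF111). Each was given to cells as they were seeded, with a lipid transfection reagent and without TGF-beta, and RNA was taken 48 h later. Each group had 1 library of polyadenylated RNA, read on an Ion semiconductor sequencer. No difference below therefore has a replicate behind it, and each compares libraries, not conditions.

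A cullin-RING ligase is built on a cullin, an elongated scaffold. Its carboxy-terminal end holds a RING protein, for many cullins RBX1, which recruits the ubiquitin-charged E2 enzyme. Its amino-terminal end holds an adaptor with an exchangeable substrate receptor. CUL1 works with SKP1 and F-box proteins, CUL2 and CUL5 with elongins and SOCS-box proteins, CUL3 with BTB proteins, and CUL4A and CUL4B with DDB1 and receptors of the DCAF kind. CRBN is such a receptor and is the target through which thalidomide and its relatives redirect the ligase to new substrates. The ligases are switched on by attachment of NEDD8 to the cullin and switched off by the COP9 signalosome.

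The most marked difference among these genes lay in which CRBN isoform was assigned the reads. Its 2 isoforms differ by 3 coding bases at the start of exon 2, on the minus strand of chromosome 3 at 3175267 to 3175269 (GRCh38, GENCODE 29 transcripts matched by RefSeq accession). The stretch around that junction is shown because no other base of the matched transcripts separates the isoforms. Capitals mark the 3 bases found only in the longer isoform, with 30 bases on each side.
CRBN NM_016302: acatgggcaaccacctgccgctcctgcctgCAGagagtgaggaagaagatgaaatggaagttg
CRBN NM_001173482: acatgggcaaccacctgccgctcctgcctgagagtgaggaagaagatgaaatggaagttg

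The 3 bases add 1 codon to the reading frame, 1326 coding bases against 1323. A read tells the isoforms apart only if it crosses this junction, which lies 90 bases from the start of the GENCODE transcripts. How many reads crossed it is not given by the tables.

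In the control siRNA library the longer isoform NM_016302 (2591 nt) had an FPKM (fragments per kilobase of transcript, scaled to the reads of the library) of 15.01, with an authors' confidence interval of 6.84 to 23.2. The shorter NM_001173482 (2588 nt) had 0.00639 there. With Arkadia siRNA the longer isoform had 10.7 (4.88 to 16.5) and the shorter 0.0459 (0 to 0.281). With ESRP2 siRNA the order was the opposite: the longer isoform had 0.0518 (0 to 0.246) and the shorter 23.2 (10.7 to 35.6). The shorter isoform thus made up 0.04% of CRBN in the control library, 0.43% with Arkadia siRNA and 99.78% with ESRP2 siRNA. For both isoforms the interval of the ESRP2 siRNA library overlapped neither of the other intervals. They were the only 2 of the 17 isoforms of the set to do so, where 2.91% of the 11429 isoforms of genes with several isoforms did not overlap between ESRP2 and control siRNA and 4.91% between Arkadia and ESRP2 siRNA. Between Arkadia and control siRNA 0 of 17 did not overlap, against 2.02%. The interval listed for the shorter isoform in the control library, 0 to 0, does not hold its own value.

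Usage change, the summed absolute change of isoform shares divided by 2, runs from 0 (same shares) to 1 (a complete exchange). CRBN had a usage change of 0.997 between ESRP2 and control siRNA, the highest of the 3455 genes that have several isoforms and whose isoforms sum to an FPKM of 5 or more in every library. Between Arkadia and ESRP2 siRNA it was 0.993, the third highest, and between Arkadia and control siRNA 0.00385. Exchanges of this size were rare: 8 of the 3455 genes (0.232%) had a usage change of at least 0.9 with ESRP2 siRNA and 5 (0.145%) with Arkadia siRNA. Between the knockdown libraries 16 (0.463%) did. Of 59 genes with 2 isoforms 3 nt apart, 13 (22%) passed 0.25 with ESRP2 siRNA and 14 (23.7%) with Arkadia siRNA, against 11.9% and 9.64% of 1566 genes whose pair differed by over 10 nt. Between the knockdown libraries the shares were 22% and 16.9%. A usage change of at least 0.9 was reached by 1 of the 59 genes with ESRP2 siRNA, CRBN itself, by 1 with Arkadia siRNA and by 2 between the knockdown libraries. Of the 1566 genes whose pair differed by over 10 nt, 0, 1 and 2 reached it in these comparisons. The part that read assignment between such close isoforms has in the CRBN values was not tested.

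**Figure D1:**
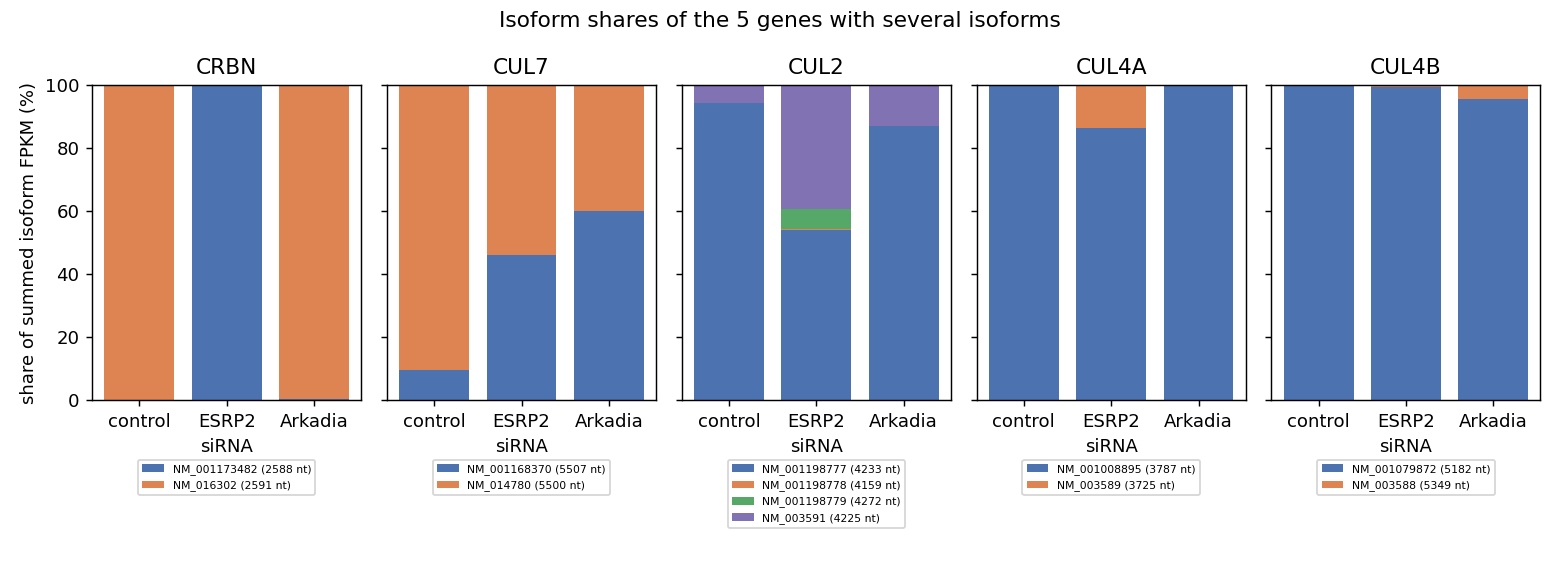
Share of each RefSeq isoform in the gene's summed isoform FPKM (percent, vertical axis) in the library of each siRNA, for the 5 genes with several isoforms. CRBN changes from 99.96% of the longer isoform with control siRNA to 99.78% of the shorter with ESRP2 siRNA, and CUL7 from 9.58% of NM_001168370 to 46.0% and 60.0%.

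CUL7, the scaffold of a ligase with FBXW8, OBSL1 and CCDC8, was the other gene with a change of coding isoform. Its isoforms differ in the first exon, in the end of exon 2 and slightly at the end of the transcript. The end of exon 2 is shown because it is one of the places where the coding sequence differs: 96 further bases, 32 codons, are kept in NM_001168370, on the minus strand of chromosome 6 at 43052113 to 43052208 (GRCh38). The coding lengths, 5346 and 5094 bases, differ by 252 bases, and the other 156 lie before this stretch, where the isoforms start translation in different exons. Capitals mark the 96 bases.
CUL7 NM_001168370: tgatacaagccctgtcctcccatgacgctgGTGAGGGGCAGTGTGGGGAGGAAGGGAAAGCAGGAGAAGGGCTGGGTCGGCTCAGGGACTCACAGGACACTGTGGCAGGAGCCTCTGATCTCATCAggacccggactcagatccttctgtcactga
CUL7 NM_014780: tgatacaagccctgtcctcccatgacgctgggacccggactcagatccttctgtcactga

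The isoform with the longer exon was at an FPKM of 0.796 (0 to 2.26) with control siRNA, 2.71 (0.632 to 4.81) with ESRP2 siRNA and 6.16 (2.04 to 10.3) with Arkadia siRNA. The isoform with the shorter exon had 7.52 (3.29 to 11.8), 3.19 (0.792 to 5.59) and 4.10 (0.697 to 7.54). The longer form was therefore 9.58%, 46.0% and 60.0% of CUL7, lowest in the control library. All intervals overlapped between libraries. The usage change was 0.364 with ESRP2 siRNA and 0.504 with Arkadia siRNA against control, and 0.140 between both knockdown libraries.

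CUL2, the scaffold that carries the VHL tumour suppressor as a receptor, changed between isoforms with the same coding length of 2235 bases and different first exons. NM_001198777 had an FPKM of 11.2 with control, 4.77 with ESRP2 and 8.46 with Arkadia siRNA, and NM_003591 had 0.665, 3.48 and 1.27. The first was 94.4%, 54.1% and 87.0% of CUL2, so the ESRP2 siRNA library stood lowest. The intervals overlapped, and the usage change was 0.403 with ESRP2 siRNA and 0.0746 with Arkadia siRNA. The remaining isoforms were low: NM_001198779 reached 0.561 (0 to 1.81) with ESRP2 siRNA and was listed at 0 in the other libraries, and NM_001198778 stayed at or under 0.00844.

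The CUL4 paralogs kept 1 main isoform each. CUL4A NM_001008895 made up 100% with control, 86.5% with ESRP2 and nearly all with Arkadia siRNA, and NM_003589, with another start site, had an FPKM of 2.77 (0 to 6.67) with ESRP2 siRNA. CUL4B NM_001079872 made up 100%, 99.2% and 95.4%, and NM_003588, which has other exons at its start and 2739 instead of 2685 coding bases, reached 0.915 (0 to 3.19) with Arkadia siRNA. Neither gene passed a usage change of 0.25 in any comparison. In all, 3 of the 5 genes with several isoforms passed it with ESRP2 siRNA (CRBN, CUL2 and CUL7), where 20% of the 3455 genes did. With Arkadia siRNA 1 passed (CUL7) against 17.1% of genes, and between the knockdown libraries 2 passed (CRBN and CUL2) against 26.3%. Because the genes were selected with these isoform shares known, the counts are a description only. The other 5 genes have 1 isoform each in the table.

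**Figure D2:**
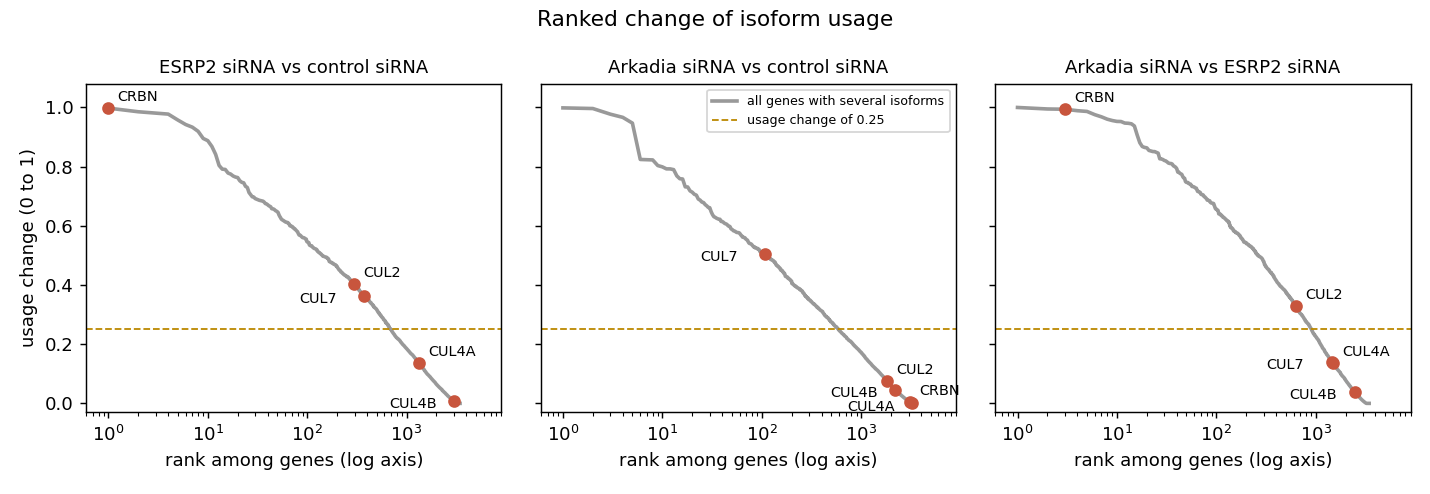
Usage change (vertical axis, 0 to 1) of all 3455 genes with several isoforms, ranked from the highest (horizontal log axis), in each comparison of libraries; points are the 5 named genes and the dashed line is 0.25. CRBN ranks 1 between ESRP2 and control siRNA and 3 between Arkadia and ESRP2 siRNA, and lies near 0 between Arkadia and control siRNA.

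At gene level the set spanned abundant and modest transcripts. FPKM is scaled to length, so levels can be set against each other. DDB1, the CUL4 adaptor, stood at 175 (93.1 to 258) with control siRNA, 140 (72.4 to 209) with ESRP2 siRNA and 181 (93.7 to 269) with Arkadia siRNA. RBX1, a RING subunit, had 98.0 (45.6 to 150), 144 (68.0 to 220) and 87.0 (40.1 to 133). CUL1 was the most abundant cullin at 62.7 (32.7 to 92.6), 74.8 (39.1 to 111) and 66.2 (34.6 to 97.7). These 3 genes led the order in every library, with DDB1 first in the control and Arkadia siRNA libraries and RBX1 first with ESRP2 siRNA, where their intervals overlapped.

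CUL4B followed at 35.3 (17.1 to 53.5) with control, 50.1 (24.7 to 75.6) with ESRP2 and 19.9 (9.44 to 30.4) with Arkadia siRNA. CUL3 had 16.5 (8.40 to 24.5), 21.3 (10.8 to 31.7) and 12.1 (6.15 to 18.0). The CUL4A values were 14.4 (6.62 to 22.1), 20.5 (9.75 to 31.3) and 11.02 (5.12 to 16.9). These 3 scaffolds were highest in the ESRP2 siRNA library and lowest in the Arkadia siRNA library, with overlapping intervals. CRBN as a whole gene behaved alike, at 15.01 (6.84 to 23.2), 23.2 (10.9 to 35.7) and 10.7 (4.88 to 16.6).

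CUL5 stood at 9.48 (4.68 to 14.3), 12.3 (6.20 to 18.3) and 5.89 (2.90 to 8.88) with control, ESRP2 and Arkadia siRNA. CUL2 had 11.9 (5.60 to 18.2), 8.82 (3.81 to 13.8) and 9.73 (4.58 to 14.9), highest in the control library. CUL7 had 8.32 (3.799 to 12.8), 5.90 (2.64 to 9.16) and 10.3 (4.79 to 15.7), lowest with ESRP2 siRNA. Between neighbours in the order of levels the intervals overlapped in every library, except between CUL1 and CUL4B with Arkadia siRNA. The paralog CUL9, not in the set, had 2.002, 1.49 and 2.64.

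**Figure D3:**
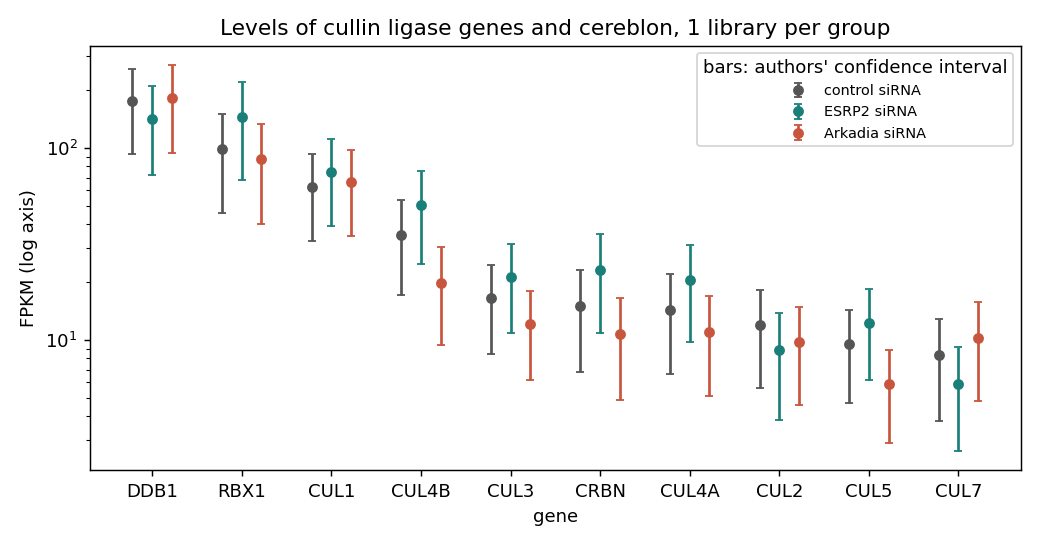
FPKM (vertical log axis) of the 10 genes in the library of each siRNA; bars are the authors' confidence intervals. DDB1, RBX1 and CUL1 lie highest in all libraries, and for each gene the intervals of the 3 libraries overlap.

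The balance between subunits moved with these levels, whose intervals overlapped between libraries for each gene. CUL1 made up 39.5% of the summed FPKM of the 7 cullins with control siRNA, 38.6% with ESRP2 siRNA and 49.0% with Arkadia siRNA. CUL4B made up 22.3%, 25.9% and 14.7%. DDB1 exceeded the sum of CUL4A and CUL4B 3.53-fold in the control library, 1.99-fold with ESRP2 siRNA and 5.87-fold with Arkadia siRNA. CUL4B exceeded CUL4A 2.45-fold, 2.44-fold and 1.80-fold. RBX1 stood at 0.697, 0.822 and 0.732 of the summed CUL1 to CUL4B level. These ratios are of transcripts in bulk RNA, where fewer cells of a kind and less RNA per cell cannot be told apart. They also set genes of unlike GC content against each other (DDB1 53.5%, CUL1 44.4%, CUL4B 40.5%), and differences between libraries moved with GC content over all genes. The DDB1 locus overlaps 3 other loci. The part of GC content and of this overlap in the ratios was not tested.

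Between ESRP2 and control siRNA, CRBN was the gene of the set that passed 1.5-fold on the scale of log2((FPKM + 1)/(FPKM + 1)), with a log2 ratio of 0.60 ± 0.52 (SE from the authors' intervals, each taken as 4 SD wide). It stood 1.51-fold higher on that scale, just past the size. RBX1 at 0.55, CUL4B at 0.49, CUL4A at 0.48, CUL3 at 0.35, CUL5 at 0.34 and CUL1 at 0.25 lay above 0 without reaching it, and DDB1 at -0.32, CUL2 at -0.40 and CUL7 at -0.43 lay below 0. The count was 1 higher and 0 lower among 10 (10%), where 31.3% of all 11870 genes compared passed, 19.9% higher and 11.4% lower (2361 and 1354 genes, or 1718 and 1834 with median of ratios rescaling, which moved the median of all genes from 0.12 to 0.01). The median of the set was 0.35 against 0.12 over all genes, and it was -0.08 after the median of each gene's GC decile was subtracted. No gene of the set had intervals that did not overlap, where 1.28% of all genes passed 1.5-fold with such intervals. The ratio of CRBN was 0.48 after median of ratios rescaling and 0.43 after upper quartile rescaling, both under 1.5-fold, and no gene of the set changed sign under either. GC subtraction turned the sign of 5 genes, CRBN, CUL1, CUL3, CUL4B and CUL5, from above to below 0.

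Between Arkadia and control siRNA, CUL4B and CUL5 were lower past 1.5-fold. CUL4B had a log2 ratio of -0.80 ± 0.51 (SE from the intervals) and was 1.74-fold lower, at percentile 5.20 of all genes. CUL5, the scaffold used by SOCS proteins, had -0.60 ± 0.45 and was 1.52-fold lower. CRBN at -0.45, CUL3 at -0.42, CUL4A at -0.36, CUL2 at -0.27 and RBX1 at -0.17 did not reach the size, nor did CUL7 at 0.27, CUL1 at 0.08 and DDB1 at 0.05. The count was 0 higher and 2 lower (20%), where 21.6% of all genes passed, 9.81% higher and 11.8% lower. The median was -0.31 against -0.02 over all genes and -0.08 after GC subtraction, and all intervals of the set overlapped, while 0.438% of all genes passed without overlap. CUL5 did not pass after median of ratios rescaling (-0.58), and after subtraction of GC decile medians neither CUL4B nor CUL5 passed and CRBN, DDB1, CUL2, CUL3 and CUL7 had the opposite sign.

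Set directly against each other, the knockdown libraries differed most for CUL4B, at -1.29 ± 0.51 (Arkadia minus ESRP2 siRNA, SE from the intervals), and for CRBN, at -1.05 ± 0.52. CUL5 at -0.95, CUL4A at -0.84, CUL3 at -0.77 and RBX1 at -0.72 were lower with Arkadia siRNA past 1.5-fold, and CUL7 at 0.71 was higher. DDB1 at 0.37, CUL2 at 0.13 and CUL1 at -0.17 did not pass. The count of 7 among 10 (70%) stands beside 52% of all genes, and after GC subtraction 2 of 10 (20%) stand beside 26.6%. Before subtraction 21.2% of all genes were higher and 30.8% lower (2521 and 3656 genes, or 3102 and 2995 after median of ratios rescaling). All 10 pairs of intervals overlapped, where 6.36% of all genes passed without overlap. At 2-fold 2 genes of the set passed in this comparison against 24.4% of all genes, and 0 in each comparison with control, against 7.87% with ESRP2 siRNA and 3.92% with Arkadia siRNA.

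**Figure D4:**
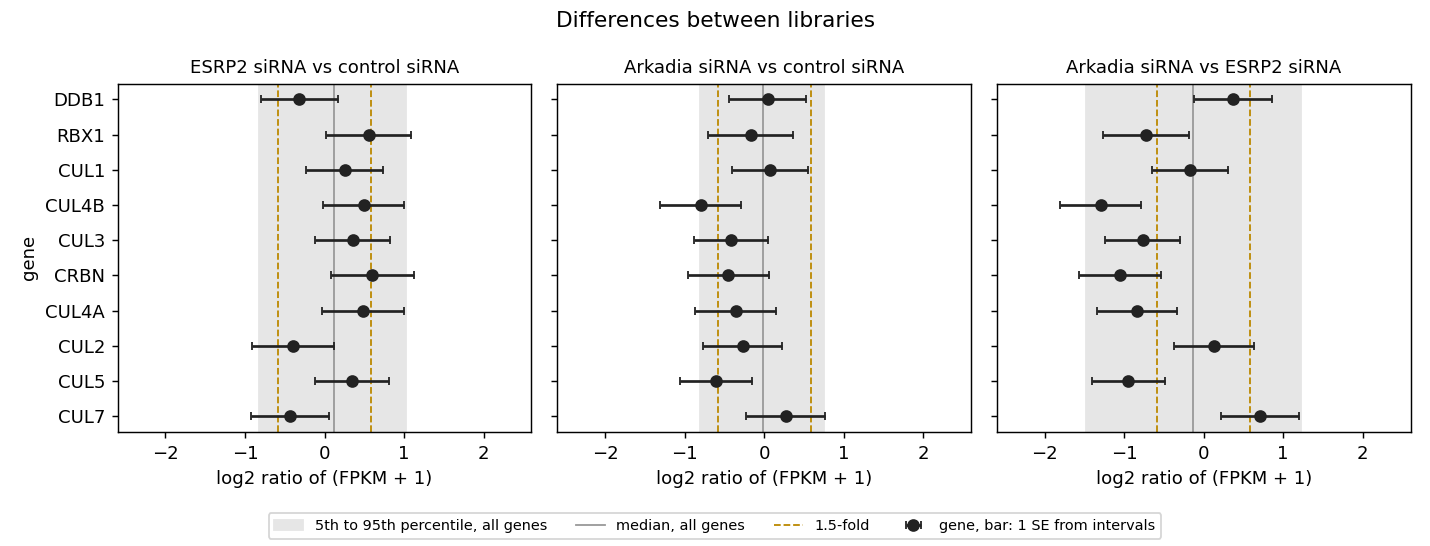
Log2 ratio of (FPKM + 1) for the 10 genes (points) in each comparison of libraries, with 1 SE from the authors' intervals (bars), the 5th to 95th percentile and median of all 11870 genes (band and line) and 1.5-fold (dashed lines). CRBN alone passes 1.5-fold between ESRP2 and control siRNA, CUL4B and CUL5 between Arkadia and control siRNA, and 7 genes between the knockdown libraries.

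Transcript GC content moved with these ratios over all genes. The median log2 ratio fell from 0.60 in the lowest GC decile to -0.49 in the highest with ESRP2 siRNA, and went from -0.46 to 0.34 with Arkadia siRNA. CUL5 (GC content 36.6%), CUL2 (36.9%), CUL3 (37.5%) and CRBN (38.4%) lie in the lowest decile, and CUL7 (59.5%) in the ninth. Once the median of its decile was subtracted, CRBN had -0.0023 with ESRP2 siRNA and 0.01 with Arkadia siRNA, so its gene-level ratios lay at the median of genes of like GC content. CUL4B had -0.02 and -0.46, CUL5 -0.26 and -0.14, and CUL7 -0.10 and -0.07.

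CUL2 lay furthest off the GC trend, at -0.99 with ESRP2 siRNA after subtraction, the only gene of the set past 1.5-fold there, and had 0.19 with Arkadia siRNA. RBX1 had 0.36 and -0.12, and CUL4A (49.8%) had 0.42 and -0.40. The matched CUL4A transcript held only 2315 different stretches of 50 bases, where the deposited isoform has 3787 nt. The GC content and decile of CUL4A thus come from a shorter transcript, and its values after subtraction rest on that. In the direct comparison CUL2 (1.20) and CUL4A (-0.81) passed after subtraction. Across the 10 genes the Spearman correlation of GC content with the log2 ratio was -0.19 with ESRP2 siRNA and 0.67 with Arkadia siRNA, given as a description of points that share the same libraries. Over 11760 genes with a GC content it was -0.64 and 0.56.

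**Figure D5:**
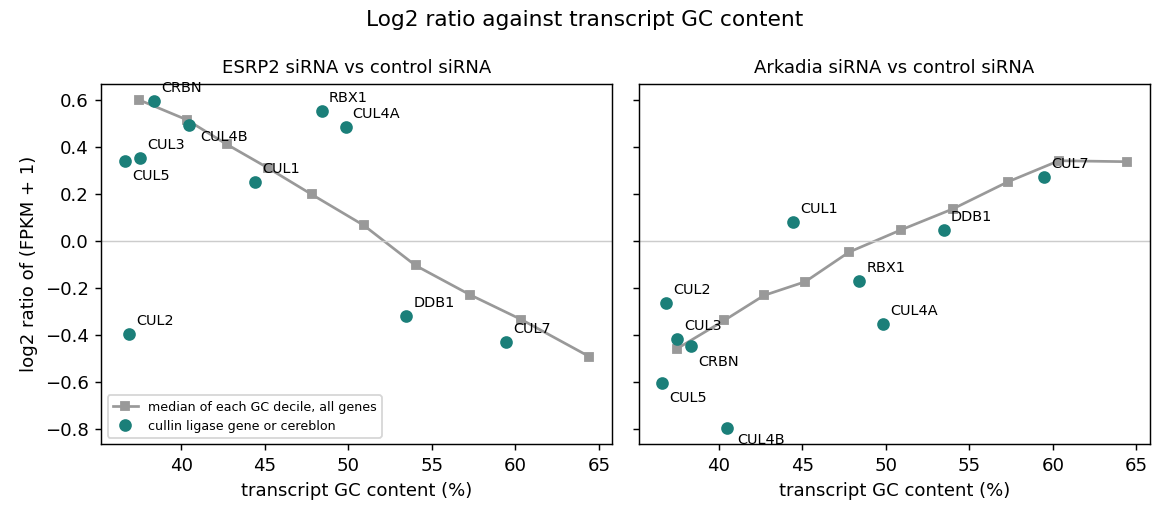
Log2 ratio of (FPKM + 1) against transcript GC content (percent) for the 10 genes (labelled points), with the median of each GC decile of all genes (squares and line), for each knockdown library against control. CRBN lies on the trend at 0.60 and -0.45, and CUL2 lies below it with ESRP2 siRNA at -0.40.

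Genes that work with the scaffolds were counted in 10 lists, of which 194 of 202 genes entered. With ESRP2 siRNA 46 were at least 1.5-fold higher and 15 lower, 31.4% against 31.3% of all genes. With Arkadia siRNA 20 were higher and 22 lower, 21.6% against 21.6%. Between the knockdown libraries 39 were higher and 70 lower with Arkadia siRNA, 56.2% against 52%. Both comparisons with control were thus at the background share. After GC subtraction 35 list genes passed with ESRP2 siRNA, 22 with Arkadia siRNA and 52 between the knockdown libraries. The shares of all genes fell too, to 16.9%, 13.4% and 26.6%. Counts per list below are without that subtraction. They stand beside 19.9% of all genes higher and 11.4% lower with ESRP2 siRNA (median 0.12). With Arkadia siRNA these shares were 9.81% and 11.8% (median -0.02). A ratio past 1.5-fold with separate intervals was found for 6 of the 194 list genes with ESRP2 siRNA, beside 1.28% of all genes. For Arkadia siRNA it was found for 0, beside 0.438%. Between the knockdown libraries it was found for 20 of the 194, beside 6.36% of all genes. No list was tested on its own, so its counts are a description. The fold sizes below are on the FPKM + 1 scale.

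Among adaptors and other core subunits, 3 of 8 were higher and 1 lower with ESRP2 siRNA, with a median log2 ratio of 0.32. SKP1, the CUL1 adaptor, had an FPKM of 65.3 with control, 115 with ESRP2 and 44.2 with Arkadia siRNA. TCEB1, the elongin C gene, had 29.998, 56.8 and 26.3, and the CUL4 partner DDA1 had 10.4, 20.3 and 14.5. ANAPC11, the RING subunit of the anaphase-promoting complex, was the only higher gene of 8 with Arkadia siRNA, at 92.9 against 39.2. All of these intervals overlapped. SKP1, TCEB1, DDA1 and ANAPC11 have a GC content of 39.0%, 36.6%, 59.0% and 58.7%.

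Of 11 neddylation genes, 3 were higher and 0 lower with ESRP2 siRNA (median 0.33), and 1 was higher and 3 lower with Arkadia siRNA (median -0.10). UBA3, the catalytic subunit of the NEDD8-activating enzyme, rose from 14.6 (6.54 to 22.7) to 50.6 (23.9 to 77.3) with ESRP2 siRNA without overlap of the intervals, and had 19.1 (8.70 to 29.5) with Arkadia siRNA. DCUN1D1, a NEDD8 ligase cofactor, had 5.08, 11.5 and 2.40 with control, ESRP2 and Arkadia siRNA. DCUN1D4 had 9.20, 19.6 and 5.30, and DCUN1D5 had 5.75, 8.58 and 2.96. DCUN1D1 and DCUN1D4 passed the size in both comparisons with control, in opposite directions, and DCUN1D5 was lower with Arkadia siRNA. The GC contents of DCUN1D1, DCUN1D4, DCUN1D5 and UBA3 are 33.9%, 36.6%, 46.1% and 39.2%. In the lowest GC decile, which holds DCUN1D1 and DCUN1D4, the median log2 ratio was 0.60 with ESRP2 siRNA and -0.46 with Arkadia siRNA. The part of GC content in these values was not tested.

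Of 12 genes of the COP9 signalosome and cullin exchange, 5 were higher and 0 lower with ESRP2 siRNA (median 0.38), and 4 were higher and 2 lower with Arkadia siRNA (median 0.14). COPS8 had an FPKM of 21.2 with control and passed the size in both knockdown libraries, at 63.2 and 47.1. COPS2 had 17.5, 42.1 and 12.3, COPS4 had 55.8, 106 and 33.6, and GLMN, an inhibitor that covers the E2 site of RBX1, had 17.7, 33.7 and 9.25. Against control all of their intervals overlapped. GC content is 42.0% for COPS8, 37.1% for COPS2, 41.7% for COPS4 and 35.1% for GLMN.

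Of 9 E2 enzymes and co-ligases, 4 were higher and 1 lower with ESRP2 siRNA (median 0.52), and 1 was higher and 1 lower with Arkadia siRNA (median -0.13). UBE2D3 had an FPKM of 122 with control, 330 with ESRP2 and 88.5 with Arkadia siRNA. UBE2D1 had 9.56, 20.7 and 5.90, and UBE2D2 had 49.98, 80.5 and 34.0. CDC34, the chain-building E2 of CUL1 ligases, went the other way at 66.8, 35.3 and 117. Its GC content is 65.9%, against 34.0% to 47.5% for the UBE2D genes named, and the part of GC content in these values was not tested.

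Of 23 CUL4 receptors, 5 were higher and 2 lower with ESRP2 siRNA (median 0.26), and 0 higher and 3 lower with Arkadia siRNA (median -0.33). DCAF15, the receptor engaged by aryl sulfonamide drugs, had an FPKM of 37.9 with control, 13.3 with ESRP2 and 48.8 with Arkadia siRNA, with a GC content of 62.6%. RFWD2, the COP1 ligase subunit, had 12.9, 27.7 and 9.36. ERCC8, the receptor of transcription-coupled repair, had 9.23, 14.996 and 4.68, and DCAF17 had 3.62, 8.02 and 2.07. RFWD2, ERCC8 and DCAF17 have a GC content of 49.0%, 38.8% and 39.6%.

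Of 45 F-box receptors of CUL1, 8 were higher and 5 lower with ESRP2 siRNA (median 0.08), and 4 higher and 5 lower with Arkadia siRNA (median 0.00). FBXO28 rose with ESRP2 siRNA from 13.5 (6.37 to 20.6) to 44.0 (21.2 to 66.7), again without overlap, and had 13.8 with Arkadia siRNA. FBXL19 had 24.4, 8.83 and 27.5, FBXO4 had 3.43, 9.34 and 3.85, and FBXO33 had 10.3, 14.3 and 3.96. FBXO33 was the gene named here that passed the size with Arkadia siRNA. FBXO28, FBXL19, FBXO4 and FBXO33 have a GC content of 38.5%, 65.9%, 40.0% and 44.7%.

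Of 40 BTB receptors of CUL3, 11 were higher and 4 lower with ESRP2 siRNA (median 0.17), and 5 higher and 4 lower with Arkadia siRNA (median -0.12). IVNS1ABP rose with ESRP2 siRNA from 17.2 (8.64 to 25.8) to 69.4 (36.2 to 102) and had 22.3 with Arkadia siRNA. SPOPL, a paralog of the receptor SPOP, rose from 1.66 (0.761 to 2.56) to 7.76 (3.83 to 11.7) and had 1.21. The intervals of both did not overlap between ESRP2 and control siRNA. KEAP1, the receptor for the oxidative stress factor NRF2, had 42.6, 14.9 and 53.8 (GC content 60.3%), and KLHL17 had 9.95, 11.6 and 25.5. IVNS1ABP, SPOPL and KLHL17 have a GC content of 41.1%, 35.7% and 65.0%.

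Of 33 receptors of CUL2 and CUL5, 5 were higher and 1 lower with ESRP2 siRNA (median 0.24), and 3 higher and 4 lower with Arkadia siRNA (median 0.06). VHL had an FPKM of 43.0 with control, 51.1 with ESRP2 and 23.2 with Arkadia siRNA, and passed the size with Arkadia siRNA. LRR1 had 21.2, 51.9 and 32.2, RAB40B had 17.8, 7.22 and 14.4, and PCMTD1 had 2.64, 3.89 and 0.799. VHL, LRR1, RAB40B and PCMTD1 have a GC content of 47.3%, 44.1%, 52.7% and 35.2%. Of the 3 partners of CUL7, OBSL1 was lower with ESRP2 siRNA, at 24.2 against 51.3 (GC content 66.5%), and 0 passed with Arkadia siRNA.

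As a check of the labels, RNF111 had an FPKM of 6.38 with control, 7.65 with ESRP2 and 1.15 with Arkadia siRNA, whose interval lay below that of the control library. ESRP2 had 14.8, 4.27 and 21.2, and its intervals overlapped. From the bounds of low genes, a single read on 1 kb of transcript was worth an FPKM of 0.0841 with control, 0.0812 with ESRP2 and 0.112 with Arkadia siRNA, so the last library was the shallowest. On that scale CRBN rested on about 463, 741 and 247 reads, and the whole set on about 247 (CRBN with Arkadia siRNA) to 9050 (DDB1 with control siRNA). Of 12 marker genes of the HEK293 line, 9 had an FPKM of at least 1 in every library and PAX2, PAX8 and LHX1 did not. Of 16 markers of blood, endothelium, fibroblasts and hepatocytes 0 did.

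On hg19 the deposited loci, counted from 1, are chromosome 3, 3191317 to 3221401 for CRBN, chromosome X, 119658446 to 119709684 for CUL4B, chromosome 13, 113863086 to 113919392 for CUL4A, chromosome 10, 35297479 to 35379570 for CUL2 and chromosome 6, 43005355 to 43021683 for CUL7. The DDB1 locus, chromosome 11, 61066919 to 61136975, overlaps those of CYBASC3, DAK and TMEM138, so its reads may not be separable from theirs; the other 9 loci overlap no other gene of the table. Of the 50-base words of the matched transcripts, 0 were shared with another GENCODE gene for 9 of the genes, CUL4A and CUL4B included, and CUL7 shared 0.52% with CUL9. For CUL4A this covers a shorter transcript (2315 words, against 3787 nt deposited), and its isoform NM_003589 had no match. Words were compared on the transcript strand only.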

How the data were processed

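The authors deposited FPKM values per gene (23284) and per RefSeq isoform (41138), each with a lower and upper confidence bound, per the file headers. The submitters' processing notes name Cuffdiff, Cufflinks 2.1.1, the aligner TopHat2 2.0.10 with Bowtie2 2.1.0, and the build hg19. The sources used here do not give the scaling between libraries, the use of strand or read numbers.

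From these, log2((FPKM + 1)/(FPKM + 1)) was computed with Python 3.11.15 and pandas 2.3.3 for genes with a mean FPKM of at least 1, status OK and at least 300 nt, which left 11870 genes and all 10 of the set. The pseudocount understates changes of low genes. A size of 1.5-fold was used for calls. Depth came from the bounds of low genes. Of 1767 examined, 1565 had bounds that were whole multiples of a unit of their own (tolerance 0.01). The unit, scaled to length, was common to 1341 of these, which gave the depth. Read numbers are estimates from it. GC content and isoform sequences came from GENCODE 29 transcripts on GRCh38; 97.2% of genes matched by RefSeq accession. The code was tested on simulated data.

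The members and lists were chosen with earlier results of these data known. Named list genes are up to 4 per list with the largest ratio past 1.5-fold against control. The split of usage by isoform length difference and the shared 50-base words were added after the data were seen. Alternatives covered pseudocount, filter, scaling, isoform sums, GC, length, call size, intervals and usage thresholds. Promoter and protein sequences were not used here.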

Additional observations from a re-analysis of the deposited data

How the results depend on the processing

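The counts of the set at gene level were small and moved with the settings. Between ESRP2 and control siRNA the count of 1 (CRBN) became 0 with a pseudocount of 5, after rescaling by the median of ratios, after rescaling to the upper quartile, at 2-fold, and when intervals had not to overlap. It stayed 1 under GC subtraction and under length subtraction, but the gene was then CUL2 and CUL7, both lower. Between Arkadia and control siRNA the count of 2 became 1 (CUL4B) with a pseudocount of 5, after median of ratios rescaling and after length subtraction, and 0 after GC subtraction, at 2-fold and with intervals that had not to overlap. Between Arkadia and ESRP2 siRNA the count of 7 became 6 with a pseudocount of 5, without CUL7, and 6 after either rescaling, without RBX1. After length subtraction it was 5, with DDB1 and CUL7 higher and CRBN, CUL4B and RBX1 lower. It became 2 after GC subtraction, 2 at 2-fold and 0 with intervals that had not to overlap. GC subtraction turned the sign of 14 log2 ratios of the set, 5 with ESRP2 siRNA, 5 with Arkadia siRNA and 4 in the direct comparison. Of these, 4 had been past 1.5-fold: CRBN with ESRP2 siRNA (-0.0023), and in the direct comparison CRBN (0.0238), CUL3 (0.30) and CUL5 (0.12). With ESRP2 siRNA the list genes past 1.5-fold went from 61 to 39 with a pseudocount of 5 and 35 after GC subtraction. The share of all genes went from 31.3% to 17.4% and 16.9%. With Arkadia siRNA list genes went from 42 to 17 and 22, and all genes from 21.6% to 10.4% and 13.4%. In the direct comparison list genes went from 109 to 52 after GC subtraction, and all genes from 52% to 26.6%. These list alternatives were chosen after the data were seen. Upper quartile rescaling gave 1526 higher and 2054 lower genes with ESRP2 siRNA, against 2361 and 1354 as deposited. The counts of usage changes (3, 1 and 2) were the same with a summed FPKM of at least 1, a threshold of 0.15 and without isoforms under 10%. Of the recomputed log2 ratios of single genes, 258 moved by less than 1 SE from the intervals, 8 moved further, and the other 4 are those past 1.5-fold whose sign turned. No sign turned under the settings other than GC subtraction. The cause of these changes was not tested. No paired analysis was possible because each group has 1 library. The reads that cross the CRBN junction are not given, and the Arkadia siRNA library is the shallowest.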

Other observations

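Of 14 genes listed as cereblon substrates, native or drug-induced, 10 entered the comparison. With ESRP2 siRNA 2 were at least 1.5-fold higher and 0 lower (20%, against 31.3% of all genes), and with Arkadia siRNA 1 was higher and 0 lower (10%, against 21.6%). CSNK1A1, the casein kinase 1 alpha gene, went from an FPKM of 31.0 (14.8 to 47.3) with control to 127 (64.4 to 190) with ESRP2 siRNA, without overlap of the intervals, and had 41.9 (20.5 to 63.5) with Arkadia siRNA. GSPT1, a translation termination factor, had 45.0, 68.7 and 43.5, and ZNF692 had 17.1, 20.5 and 27.8. GC content is 44.0% for CSNK1A1, 43.2% for GSPT1 and 59.5% for ZNF692. The median log2 ratio of the list was -0.05 with ESRP2 siRNA, against 0.12 over all genes, and 0.14 with Arkadia siRNA, against -0.02.

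Among the 194 list genes, the pair of log2 ratios against control nearest to that of CRBN (0.60 and -0.45) was that of FBXL4 (0.61 and -0.42), at a distance of 0.03. The nearest to CUL4B was DCUN1D5 (0.51 and -0.77), also at 0.03, and the nearest to CUL4A was DCAF16 (0.39 and -0.39), at 0.10. For the other members the nearest genes were PATZ1 (DDB1), FBXL20 (CUL1), SPSB4 (CUL2), SENP8 (CUL3), FBXO8 (CUL5), FBXL18 (CUL7) and KLHL8 (RBX1). The likeness rests on 3 libraries, and only list genes were searched. The distances lie below the SE of the ratios matched, which for CRBN were 0.52 and 0.51, so the order of near genes is not resolved.

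The other near-complete isoform exchanges with ESRP2 siRNA, by usage change, were those of C20orf96 (0.985), VARS2 (0.980), PHF1 (0.977), RGMA (0.957), CUX1 (0.942), MAN2C1 (0.933) and BBC3 (0.919), named after their values were seen.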
